A study of Mus musculus with 7 samples.

Results

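Hepcidin and the genes around it decide how much iron enters the blood, and they were read here in the livers of young male mice whose dams had or had not drunk ethanol in early pregnancy. The set holds 10 genes, taken by symbol from a fixed list and found in the probe annotation under current names or older aliases (hemojuvelin, listed as Hfe2, is named Hjv). It is 10 of the 19057 genes named on the Illumina BeadArray, and it is read by 16 probes, 1 probe for each of 4 genes and 2 probes for each of 6 genes. The list was selected on measured values in part, since it was put together with earlier results of the same ethanol and control intensities in view. Group differences of these genes are therefore descriptions of these animals and support nothing beyond them.

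Liver RNA came from 7 male C57BL/6J mice at postnatal day 28, 4 controls and 3 exposed in utero, each on its own array. The exposure was 10% (v/v) ethanol in the dam's drink, taken freely from fertilization to gestational day 8.5, in a model that the series describes as fetal alcohol syndrome with poor growth after birth. One treatment text is attached to every sample, whichever its group, and the group was read from the title. Litters, the number of dams and what the control dams drank are not stated in the labels, so every error given is the spread between these samples, and shared litters would make it too small.

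The arrays were alike, with correlations of log2 levels across probes from 0.987 to 0.995 within groups and from 0.981 to 0.992 across groups. Between 13951 and 15068 of 45281 probes per array were above background, meaning that the deposited intensity exceeded 3 times the noise SD (limits from 21.3 to 26.9 units). Of 10 hepatocyte markers, 8 were above background on all 7 arrays, while Tat was not above background on any array and the same held for Fabp1. Precision is limited by having 7 arrays. In whole liver a smaller number of cells of a type cannot be told apart from less RNA per cell.

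Hepcidin is a small peptide hormone that hepatocytes secrete. It binds ferroportin, the iron exporter of gut cells and macrophages, and has it degraded, so that less iron reaches the blood. Hepatocytes raise hepcidin transcription when iron is plentiful, through bone morphogenetic protein (BMP) receptors with the coreceptor hemojuvelin and the SMAD proteins, assisted by HFE and transferrin receptor 2, and during inflammation through interleukin-6 and STAT3. The protease TMPRSS6 cleaves hemojuvelin and holds the pathway down.

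Mice carry a pair of hepcidin genes, Hamp and Hamp2, side by side on chromosome 7. Hamp encodes the iron-regulating hormone. In mice made to overproduce the product of Hamp2, iron metabolism stayed normal. The stretches of 250 bases before the start of each gene are shown because both hepcidin genes had lower values in the ethanol livers than in the control livers. The Hamp stretch holds a known input site of the iron pathway, and both stretches hold a match to the STAT motif of the inflammation pathway. They are RefSeq sequences of GRCm38.p6, at chr7:30944030-30944279 for Hamp and chr7:30924182-30924431 for Hamp2, both on the minus strand and written 5′ to 3′. Capitals mark the BMP response element core GGCGCC of Hamp, the aligned bases of Hamp2, and the match to the STAT motif TTCNNNGAA in each.
Hamp: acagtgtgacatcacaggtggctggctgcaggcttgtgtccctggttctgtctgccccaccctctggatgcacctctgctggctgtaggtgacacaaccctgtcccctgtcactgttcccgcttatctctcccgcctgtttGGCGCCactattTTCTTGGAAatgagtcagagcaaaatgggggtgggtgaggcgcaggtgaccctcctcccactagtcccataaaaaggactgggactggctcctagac
Hamp2: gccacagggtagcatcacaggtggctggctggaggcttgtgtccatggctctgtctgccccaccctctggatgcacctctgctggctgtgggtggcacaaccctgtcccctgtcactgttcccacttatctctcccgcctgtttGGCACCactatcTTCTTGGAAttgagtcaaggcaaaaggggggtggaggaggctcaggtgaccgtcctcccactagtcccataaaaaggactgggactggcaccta

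The 2 promoters were 91.9% identical over 247 aligned bases, with 20 substitutions. One of them, G145A, counted from 1 at the 5′ end of the Hamp stretch, falls inside the BMP element of Hamp, so Hamp2 has no match to GGCGCC there. The STAT match has the same letters in both. Searched on both strands in the 250 bases before the start, GGCGCC occurs in 9.59% of 32851 RefSeq promoters and TTCNNNGAA in 7.02%. These are letter matches and say nothing about binding in these livers. Promoter sequence was at hand for 5 of the 10 genes. Among their 8 stretches the E-box CACGTG and the palindrome TGACGTCA had no match, and 1 stretch of Tfrc also held GGCGCC.

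Both hepcidin genes had lower values in every ethanol liver than in any control liver. Hamp had deposited intensities of 12513, 9898, 10766 and 19728 in control animals 1 to 4 and of 8426, 2239 and 4976 in ethanol animals 1 to 3. Control 4 stood highest and ethanol 2 lowest, and the groups did not overlap. The means were 13226 ± 4469 (SD, n = 4) and 5214 ± 3100 (SD, n = 3), and the log2 fold change on the normalized scale was -1.49 ± 0.37 (SE), which is 2.82-fold lower.

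Hamp2 had intensities of 28035, 22976, 30326 and 32366 in the control animals and of 15245, 18288 and 14462 in the ethanol animals. Its lowest control value, in animal 2, lay above its highest ethanol value, also in animal 2. The means were 28426 ± 4041 (SD, n = 4) and 15998 ± 2021 (SD, n = 3), with a log2 fold change of -0.88 ± 0.13 (SE), or 1.84-fold lower. The order of the ethanol animals differed between the pair. Ethanol 2 had the lowest Hamp value, 2.54 below the control mean on the log2 scale, and the highest Hamp2 value of its group, 0.75 below that mean. Among the controls, both genes were lowest in animal 2 and highest in animal 4. After centring on each group, the Pearson correlation over 7 animals was 0.05. It pools controls, where both ends were shared, with ethanol animals, where the order differed, so it describes neither group alone.

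**Figure D1:**
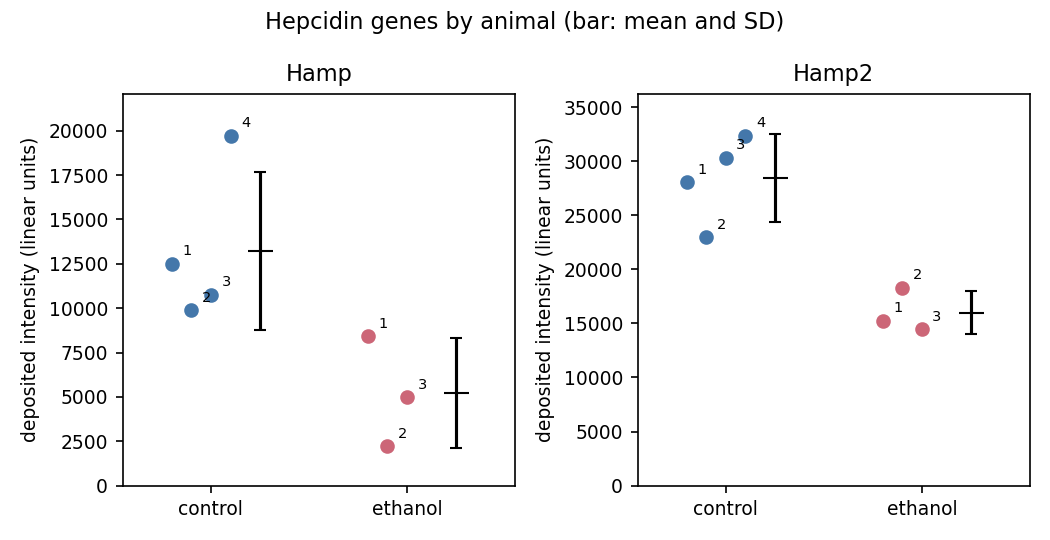
Deposited intensity (linear units, y axis) of Hamp and Hamp2 in each control (blue) and ethanol (red) liver, with the animal number beside each point and the group mean and SD as a black bar. The ethanol values of Hamp lie between 2239 and 8426 and those of Hamp2 between 14462 and 18288, all below the lowest control animal.

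Hamp was also among the genes that varied most between animals of 1 group. Its SD within groups was 0.70 on the log2 scale, higher than that of 99.6% of tested probes, where the median was 0.13. Hamp2 varied less, with an SD of 0.22. The Hamp and Hamp2 transcripts are near-identical copies and the probe sequences were not used here, so signal shared between the probes was not tested.

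Neither gene passed the test over all probes. In limma with Benjamini-Hochberg adjustment over 23829 tested probes, the adjusted p was 0.110 for Hamp2 and 0.392 for Hamp. Of the 16 probes, 15 were bright enough to be tested, and 0 of them passed at 0.05, against 0.021% of all tested probes (0.00839% higher and 0.0126% lower). At an unadjusted p under 0.05 there were 6 of the 15, 2 lower and 4 higher, against 8.8% of all tested probes. Groups did not overlap in 5 of the 15 (against 8.71% of all tested probes), lower for 2 (against 4.6%) and higher for 3 (against 4.12%). Because the genes were chosen with this contrast known, nothing is read from these shares. Without control 2 Hamp2 passed, with an adjusted p of 0.0404 in limma and a log2 fold change of -1.01; its adjusted p ran up to 0.363 in the other settings. The Hamp value leaned on ethanol 2, at -0.97 without that animal, and reached -1.94 without ethanol 1.

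**Figure D2:**
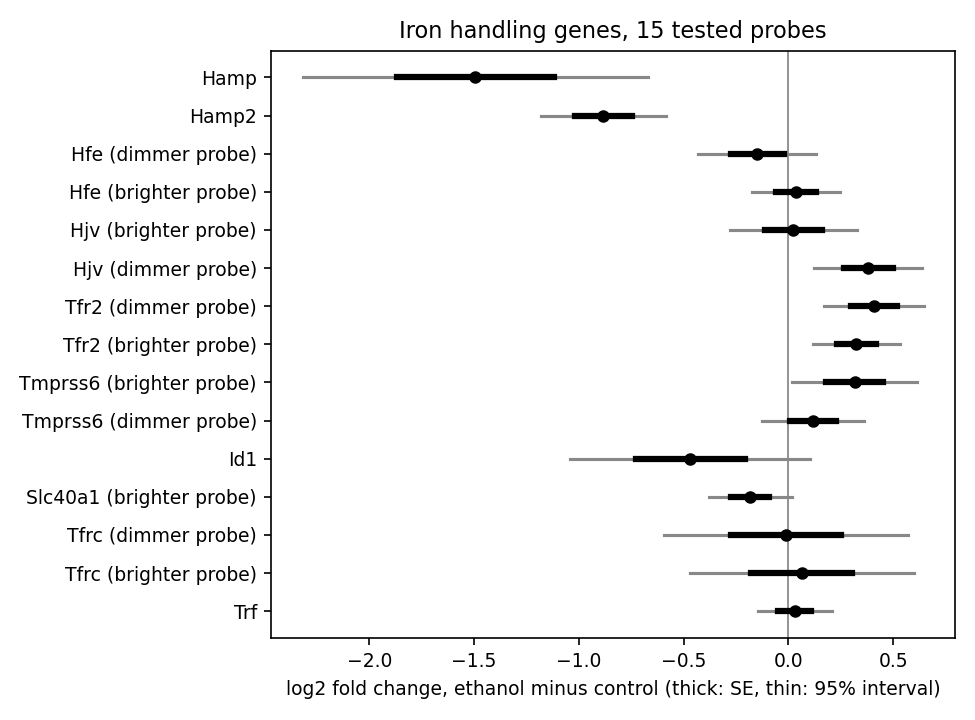
Log2 fold change (x axis, ethanol minus control) of the 15 tested probes, with points for the estimate, thick bars for 1 SE to each side and thin bars for the 95% interval. Hamp at -1.49 and Hamp2 at -0.88 stand to the left of 0, both Tfr2 probes to the right, and Trf close to 0.

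Tfr2, transferrin receptor 2, reads transferrin-bound iron at the hepatocyte surface and promotes hepcidin expression. Its brighter probe had intensities of 1396, 1628, 1562 and 1525 in control livers and of 1932, 1792 and 2101 in ethanol livers. Every ethanol animal lay above every control animal, with means of 1528 ± 97.6 (SD, n = 4) and 1942 ± 155 (SD, n = 3) and a log2 fold change of 0.32 ± 0.09 (SE). The dimmer probe gave 201, 198, 244 and 252 against 359, 272 and 326. It did not overlap either, and its log2 fold change was 0.41 ± 0.11 (SE). In limma the adjusted p-values were 0.427 and 0.392, so the higher values did not pass. Both probes stayed positive in all 15 alternative settings, between 0.24 and 0.52. Some of these settings change only which probes are tested or the variance, which cannot move a fold change. Ethanol 2 was the lowest ethanol animal on both probes.

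Tmprss6, the protease that restrains hepcidin, had intensities of 816, 938, 1019 and 1100 in control livers and of 1066, 1116 and 1479 in ethanol livers at its brighter probe. The groups overlapped, since ethanol 1 lay below control 4, and the log2 fold change was 0.32 ± 0.13 (SE). Without ethanol 3, the highest animal, it was 0.16. The dimmer probe gave 0.12 ± 0.11 (SE), and 0.00 without ethanol 3.

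Hfe, an atypical major histocompatibility class I protein whose loss causes iron overload, showed no shared direction at its probes. The brighter probe ran from 766 to 899 in control livers and from 760 to 905 in ethanol livers, with a log2 fold change of 0.04 and a 95% interval from -0.17 to 0.25. The dimmer probe ran from 170 to 241 and from 144 to 219 (log2 fold change -0.15, interval from -0.43 to 0.13). Groups overlapped at both.

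Hjv, the hemojuvelin gene, was close to background. Its first probe had intensities from 14.4 to 40.6 in control livers and from 12.8 to 48.1 in ethanol livers and was above background on 5 of 7 arrays. The second had 16.4, 15.9, 11.1 and 5.97 in control livers, none above background, and 17.9, 50.5 and 46.6 in ethanol livers, where ethanol 2 and 3 were above it. The second probe did not overlap between groups, but the first had a log2 fold change of 0.02 ± 0.14 (SE) against 0.38 ± 0.12 (SE) for the second, and within groups the probes ran against each other (Pearson r -0.36 over 7 animals, centred on each group). The value of the second probe depended on how dim signals were handled, reaching 1.42 on intensities used as given.

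Id1, an inhibitor of DNA binding, is a direct target of BMP and SMAD signalling and is often read beside hepcidin as a sign of that pathway. It had intensities of 369, 249, 153 and 207 in control livers and of 110, 273 and 103 in ethanol livers. Ethanol 1 and 3 lay below all controls, whereas ethanol 2, the animal with the lowest Hamp value, lay above 3 of the 4 controls. The log2 fold change was -0.47 ± 0.26 (SE), with a 95% interval from -1.04 to 0.10. It was -0.78 without ethanol 2 and -0.28 without control 1. The within-group SD of Id1, 0.48, was higher than that of 98.8% of tested probes. After centring on each group, Id1 and Hamp had a Pearson correlation of -0.56 over 7 animals, and Id1 and Tfr2 one of -0.75. Ethanol 2 had the highest Id1 and the lowest Hamp value of its group. Among the controls, Hamp was highest in control 4 and lowest in control 2, and Id1 highest in control 1 and lowest in control 3. The value of -0.56 thus does not describe both groups alike.

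Slc40a1, the ferroportin gene, had intensities of 7323, 7796, 8051 and 8201 in control livers and of 7791, 7175 and 6327 in ethanol livers at its brighter probe. Ethanol 2 and 3 lay below all controls and ethanol 1 among them, with a log2 fold change of -0.18 ± 0.09 (SE) and a 95% interval from -0.38 to 0.02. The other probe, annotated to another transcript record, was below 0 on all 7 arrays and was not tested. Ferroportin is also abundant in Kupffer cells, the macrophages of the liver, and markers of these cells were read beside it. Of 12 markers, 11 were above background on all arrays and Cd5l on none. Their summed intensity ran from 6926 to 7855 in control livers and was 9503, 10286 and 6442 in ethanol animals 1 to 3. Ethanol 3 had the lowest ferroportin value and the lowest marker sum, whereas ethanol 2 had the highest marker sum and a ferroportin value below all controls. Of 11 tested markers 10 had higher values after exposure, with a median log2 fold change of 0.17 beside 0.00 over all tested probes. None passed in limma, where 3 had an unadjusted p under 0.05 (against 8.8% of all tested probes). The leading ones were Folr2, a folate receptor of macrophages, at 0.45, and the complement genes C1qb and C1qc, each at 0.43. Folr2 alone among these markers had groups without overlap (higher without overlap in 4.12% of all tested probes). The part of macrophages in these values was not tested.

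**Figure D3:**
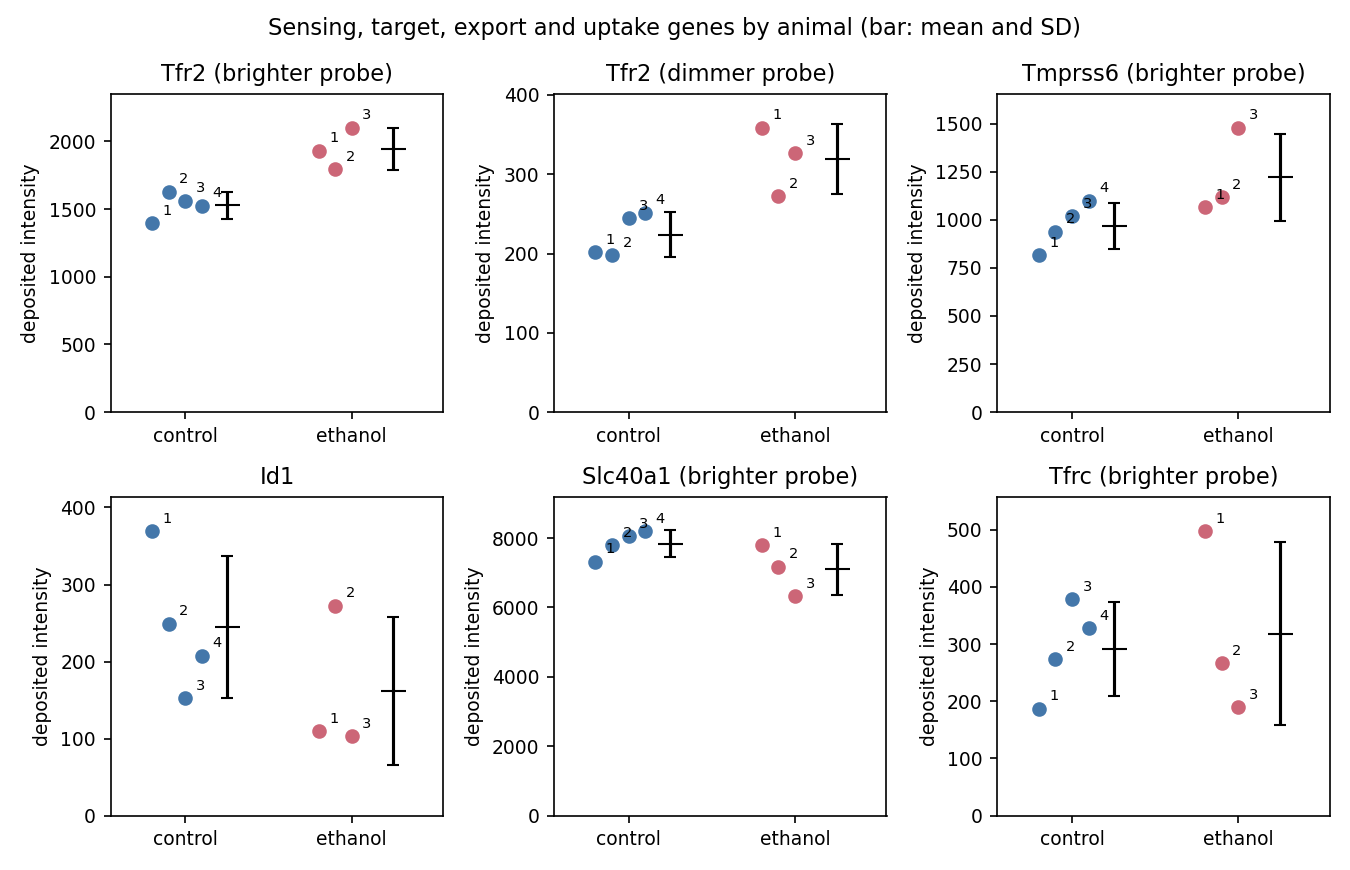
Deposited intensity (y axis, linear units) in each control (blue) and ethanol (red) liver for Tfr2 at both probes, Tmprss6, Id1, Slc40a1 and Tfrc, with animal numbers beside the points and group means and SDs as black bars. The groups separate for both Tfr2 probes and overlap in the other 4 panels.

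Tfrc, transferrin receptor 1, takes up transferrin-bound iron, and its messenger RNA is stabilised when cells are short of iron. It had intensities of 187, 274, 379 and 328 in control livers and of 498, 267 and 190 in ethanol livers at its brighter probe. Ethanol 1 lay above all controls and ethanol 3 near the lowest one, and the SD was 160 (n = 3) in ethanol livers against 82.0 (n = 4) in control livers. The log2 fold change was 0.06 ± 0.24 (SE), with a 95% interval from -0.47 to 0.60, and the dimmer probe gave -0.01 ± 0.26 (SE). Both probes followed each other closely (Pearson r 0.96 over 7 animals, centred on each group), so the spread between animals was seen by both probes. The fold change of the dimmer probe ran from -0.36 without ethanol 1 to 0.32 without ethanol 3. After the same centring, Tfrc and Slc40a1 had a correlation of 0.91.

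Red cell precursors are rich in Tfrc, and erythroid markers were checked beside it. Of 10 such markers, 6 were above background on all arrays, and Ermap and Epb42 on none. Their summed intensity ran from 120032 to 161475 in control livers and was 158419, 168076 and 137817 in ethanol animals 1 to 3, so the groups overlapped. In this sum the globin gene Hba-a1 alone gave between 36513 and 54294 units. The highest intensities of the arrays were 50423 to 63235, so differences of Hba-a1 may be compressed. Of 9 tested markers 6 had higher and 3 lower values, with a median log2 fold change of 0.07. Hbb-b2, a globin gene above background on 2 arrays, had -0.28, lower with no overlap between groups. Alas2, the erythroid enzyme that starts heme synthesis, had 676 ± 100.3 (SD, n = 4) and 1136 ± 414 (SD, n = 3), with a log2 fold change of 0.65 ± 0.21 (SE) that did not pass in limma (adjusted p 0.465). It was 0.40 without ethanol 3 and 0.95 without ethanol 1. Alas2 was highest in ethanol 3, the ethanol animal with the lowest Tfrc value. The part of erythroid cells was not tested.

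Trf, transferrin, is the plasma carrier of iron and a main secreted product of hepatocytes. It had intensities of 49008, 52536, 46527 and 55751 in control livers and of 59015, 57835 and 55681 in ethanol livers. Its deposited values overlapped only where control 4 lay just above ethanol 3. These values were between 90.7% and 97.0% of the highest intensity of each array, so differences may be compressed. On the normalized scale the log2 fold change was 0.03 ± 0.08 (SE), with a 95% interval from -0.14 to 0.21. Quantile normalization gives the brightest probes of each array nearly the same value, and without normalization it was 0.18.

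Beyond these 10 genes, 12 lists of iron genes were read, and 80 further genes of them were tested. None passed in limma at an adjusted p of 0.05 (against 0.021% of all tested probes), and 5 had an unadjusted p under 0.05 (against 8.8%). Of the 80, 45 had higher and 35 lower values after exposure. Their median log2 fold change was 0.01, beside 0.00 over all 12769 tested genes. Groups did not overlap for 5 of them with higher values (against 4.12% of all tested probes) and 3 with lower values (against 4.6%). These shares are near those of all probes.

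Of 9 tested genes of the sensing complex, Tfr2 and Tmprss6 included, 7 were higher and 2 lower, with a median of 0.04. Among BMP receptor genes, Bmpr1a, a type I receptor, had a log2 fold change of -0.20 ± 0.09 (SE, second probe -0.03), Acvr1, also a type I receptor, -0.07, and Acvr2a, a type II receptor that was not above background on any array, 0.05. Of the BMP and SMAD signalling list 9 genes were tested, 4 higher and 5 lower, with a median of -0.01. Its leading members were Fkbp1a, which binds type I receptors (0.16), and the ligands Bmp4 (0.23, but 0.08 without ethanol 3 and 0.37 without ethanol 1) and Bmp7 (-0.12, not above background on any array). Bmp6 and Bmp2, the ligands that liver endothelium supplies to hepatocytes, were not above background on any array and were not tested. The 11 endothelial markers, 9 of them above background on all arrays, summed to between 11546 and 15824 in control and between 11143 and 14063 in ethanol livers, with Kdr below background on all arrays. Of 11 tested endothelial markers 7 were lower and 4 higher in value, with a median of -0.08. Lyve1, a hyaluronan receptor, stood apart at -0.39 ± 0.12 (SE). The others lay between -0.15 for Fcgr2b and 0.21 for Tie1, which was above background on 1 array. Markers of hepatic stellate cells, the vitamin A storing cells, summed to between 8139 and 9808 in control and between 6917 and 8535 in ethanol livers. Most of this sum was Dcn alone, from 5878 to 6963 in control and from 4902 to 6197 in ethanol livers. Dcn had a log2 fold change of -0.23 (other probes -0.29 to 0.02). Of the 10 markers, 7 were above background on all arrays and Pdgfrb on none. Of these 10 markers 9 were lower in value, with a median of -0.16. Among them was the retinol enzyme Lrat at -1.19 ± 0.46 (SE), whose groups overlapped. It had intensities of 366, 379, 45.2 and 60.3 in control livers and of 38.0, 58.5 and 7.18 in ethanol livers. Controls 3 and 4 thus lay near the ethanol animals. Col3a1, a collagen gene, had -0.29 (second probe 0.10). Its first probe alone among the 10 markers had groups without overlap (lower without overlap in 4.6% of all tested probes). None of the markers passed in limma, and the part of these cells in the BMP values was not tested.

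Of 6 tested BMP and SMAD target genes, Id1 included, 5 had lower values, with a median of -0.10 beside 0.00 over all tested probes. The value of Id3 was close to 0, at -0.04 ± 0.18 (SE). Id2, which like Id1 blocks helix-loop-helix factors, had intensities of 1032, 1037, 737 and 939 in control livers and of 371, 824 and 594 in ethanol livers. Ethanol 1 and 3 lay below all controls and ethanol 2 among them, as for Id1. The log2 fold change was -0.65 ± 0.20 (SE), -0.28 and -0.27 at its other probes, and it did not pass in limma (adjusted p 0.452). Without ethanol 1 it was -0.38. Atoh8, a hepatic transcription factor, had -0.17 and was above background on 1 array, Id4 had 0.15 and was above background on none, and Smad6, an inhibitor of the pathway, had -0.04. Smad7 was not above background on any array.

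On the inflammatory side 19 genes were tested, 14 higher and 5 lower, with a median of 0.08. Orm1, an acute phase plasma protein of hepatocytes, had intensities of 15257, 21132, 21985 and 15668 in control livers and of 27910, 32883 and 27911 in ethanol livers. All ethanol animals lay above all controls, with a log2 fold change of 0.61 ± 0.13 (SE), and Orm2, its close relative, had 0.62 ± 0.14 (SE). Neither passed in limma (adjusted p 0.306 and 0.319). Near-identical Orm genes can share hybridisation signal. Of other acute phase genes, named after their values were seen, Lcn2 had 0.56 ± 0.44 (SE), Saa1 0.17 ± 0.38 (SE), Hp 0.10 and Fga 0.06. Stat3 had 0.18, Socs3, a feedback inhibitor of STAT3, -0.24, and Jak1, a kinase of cytokine receptors, -0.26 ± 0.09 (SE). The Jak1 probe was dim and above background on 5 arrays.

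The uptake list had a median of 0.01 over 11 tested genes, 6 higher and 5 lower. Slc11a2, an iron importer, had 0.24 ± 0.11 (SE, other probes -0.01 and 0.26), Lrp1, a receptor that takes up heme bound to hemopexin, 0.18, and Steap4, a metal reductase, -0.23, with no overlap between groups but above background on 1 array. The storage and chaperone list had a median of 0.01 over 5 genes, with -0.06 for Fth1, the ferritin heavy chain (second probe -0.10), -0.12 for Pcbp2, an iron chaperone, and 0.11 for Ncoa4, the receptor for ferritin breakdown. The deposited Fth1 means ran the other way, at 45448 ± 4954 (SD, n = 4) in control and 47641 ± 3911 (SD, n = 3) in ethanol livers, so this bright probe has no settled direction across scales. The oxidase gene Cp, ceruloplasmin, had 0.01 ± 0.11 (SE, other probes -0.21 to 0.16), and its relative Heph 0.02. Flvcr1, a heme exporter, had 0.01. Of 5 tested genes of cellular iron sensing 4 were lower, with a median of -0.15, where Fbxl5, which marks iron regulatory proteins for breakdown, had -0.22 (second probe 0.10), Skp1, a subunit of the same ligase type, -0.19 and Ireb2, an iron regulatory protein, -0.15 (second probe -0.03). Without ethanol 3 the Fbxl5 value was -0.11.

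In the mitochondrial list 6 of 9 tested genes had higher values (median 0.06), with 0.18 for the iron importer Slc25a37, whose groups did not overlap, 0.16 for its relative Slc25a28 and -0.14 for Fdx2, which was not above background. Heme breakdown genes lay at -0.11 for Blvrb, -0.10 for Blvra and 0.04 for Hmox2. Of the genes that link red cell production or oxygen to hepcidin, Egln3, an oxygen-sensing prolyl hydroxylase, had -0.27 (second probe -0.03), Hif1a -0.11 and Epas1 0.08. The Hif1a probe was above background on 3 arrays. Erfe, the erythroid suppressor of hepcidin, was not above background in liver on any array.

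**Figure D4:**
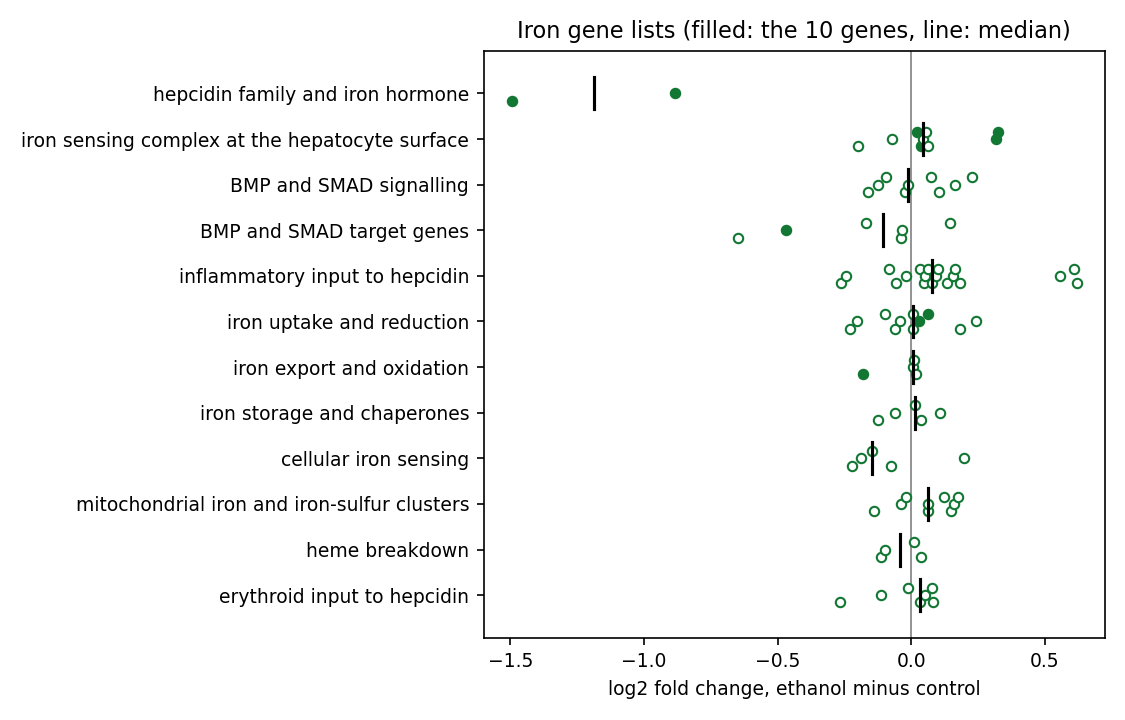
Log2 fold change (x axis, ethanol minus control) of the tested genes of 12 iron gene lists, 1 point for the brightest tested probe of each gene, filled for the 10 genes described first and open for the others, with list medians as black lines. Hamp and Hamp2 lie at -1.49 and -0.88, and the medians of the other 11 lists lie between -0.15 and 0.08.

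Genes whose levels followed the hepcidin genes from animal to animal were sought among 7657 other genes above background on all arrays, after centring on each group. With 7 animals and this many genes, high correlations are common, and they are given as a description. Those closest to Hamp were Stab2, a scavenger receptor of sinusoidal endothelium (Pearson r 0.995 over 7 animals), Ttl (0.987), Traf6 (0.985), Ets2 (0.979) and Pop7 (0.975). Those closest to Hamp2 were Vbp1 (0.976), Samhd1 (0.970), Ccdc12 (0.969), Mrpl52 (0.965) and Pea15a (0.963). No gene was in both groups of 5. None of these 10 passed in limma, and their fold changes lay between -0.33 for Ets2 and 0.12 for Traf6.

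**Figure D5:**
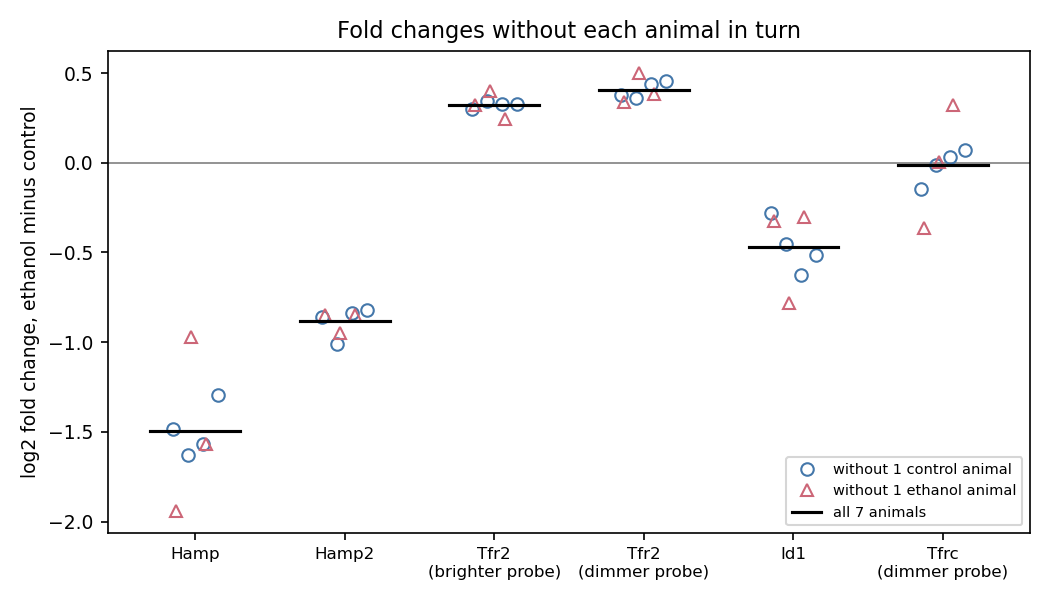
Log2 fold change (y axis, ethanol minus control) of Hamp, Hamp2, both Tfr2 probes, Id1 and the dimmer Tfrc probe with all 7 animals (black line) and without each control (blue circles) or ethanol animal (red triangles) in turn. Hamp runs from -1.94 to -0.97 and Hamp2 from -1.01 to -0.82, while Tfrc crosses 0.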

How the data were processed

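The authors deposited 1 intensity per probe and array on a linear scale, made with GenomeStudio per the submitters' processing notes. The version, background correction and normalization are not given in the sources used here. Values below 0 and near-equal upper quartiles (50.1 to 51.7) show that a background had been subtracted and the arrays scaled. A second table was left out: the names of its 14 columns match no sample.

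Intensities were corrected with normexp (offset 50), log2 transformed and quantile normalized in limma 3.58.1 (R 4.3.3). A probe was tested where its value exceeded the array median on at least 3 arrays. The ethanol term was tested with lmFit and eBayes (two-sided), and p-values were adjusted by Benjamini and Hochberg's method over the whole set of tested probes. Fold changes on this offset scale understate changes of dim probes. The fit was tested on simulated data. Intervals at 95% use the moderated variance.

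Symbols were updated through gene IDs in a RefSeq table of GRCm38.p6 (34807 of 34885 probes with 1 symbol; 18 had several and 10378 none). Genes with more probes enter lists by the brightest tested one. All probes of the 10 genes are named, as are the 3 members per iron list outside them with the largest moderated statistic and the 5 genes closest to each hepcidin gene. The members and lists were chosen with earlier results of these data known.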

Additional observations from a re-analysis of the deposited data

How the results depend on the processing

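The count of 5 probes past the threshold among all 23829 depended on the settings. It was 0 on values as given, 0 without normexp, 3 with offset 16, 8 without a filter, 0 on probes above background only and 1 with trended robust variances. Without 1 animal it ran from 0 (control 1, 3 or 4) to 27 (ethanol 1), with 1 without control 2 and 2 without ethanol 2, and the count of hepcidin genes past the threshold from 0 to 1 (Hamp2, without control 2). No other count of an iron list moved from 0 under the 15 settings. Settings that change only which probes are tested, or only the variance, cannot move a fold change. The setting with the replicate number as a block gives the same fold changes as leaving out control 4. With these counted in, 219 of 224 values of single probes moved by less than the SD within groups. The others were the dim second Hjv probe (1.42 on values as given, 1.40 without normexp, 0.59 with offset 16) and Trf (0.18 on values as given, 0.17 with upper quartile scaling). Direction was kept in all settings by 11 of 15 probes, the exceptions being both Tfrc probes, the brighter Hfe probe and the first Hjv probe. The cause was not tested.

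Animals of the same number do not pair by the labels. Their deviations from group means correlated at -0.19, 0.09 and 0.20, and control 1 correlated best with ethanol 2 (0.30). With the replicate number as a block, on animals 1 to 3 of each group, 24 probes passed, none of them of these genes, and 0 did so on the same 6 animals without the block, a setting added after seeing the data. The planned permutation tests of correlations between Hamp, Hamp2 and Id1 were not run, and group-centred correlations are given as descriptions only, because the groups separate in both hepcidin genes and neither holds 6 animals.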
